A study of Mus musculus with 4 samples.

Results

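The genes described here encode scaffold and membrane proteins of the epithelial tight junction, together with 2 adhesion proteins of the lateral membrane of gut epithelium: Tjp1 and Tjp3, Ocln, F11r, Cgn, Marveld2, Marveld3, Cdh17 and Epcam. They were taken by gene symbol, and all 9 were found among the 31227 Ensembl genes of the count table, 1 row each. RNA sequencing had been done on colonic epithelial cells of mice 8 to 10 weeks old with chemically induced colitis. Both groups drank 3.5% dextran sulfate sodium (DSS), which damages the colonic lining, over 5 days and then plain water, and were killed on day 7. The wild-type group (WT) has 2 libraries, numbered replicates 1 and 3. The group whose epithelium lacks Smad4 (Smad4 KO, below KO), the partner through which TGF-β and BMP receptors signal to the nucleus, has 2 libraries, replicates 1 and 2. How Smad4 was deleted and which cells the driver reaches are details not given in the sources used here. Mice without DSS were not analysed here. So each comparison sets KO against WT under DSS.

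Tight junctions seal the gap between neighbouring epithelial cells near their apical side and decide which ions and solutes pass between them. Claudins form the strands of the seal. Occludin and tricellulin (Ocln and Marveld2) and Marveld3 are membrane proteins with a MARVEL domain that sit in the strands, tricellulin mainly where the corners of neighbouring cells meet. The zonula occludens proteins (Tjp1 is ZO-1, Tjp3 is ZO-3) and cingulin (Cgn) form the plaque beneath, which ties the strands to actin and myosin, and junctional adhesion molecule A (F11r) recruits polarity proteins to it. Epcam is an adhesion protein that binds and stabilises claudin-7, and Cdh17 is the liver-intestine cadherin, which holds gut epithelial cells together without the catenins that classical cadherins use. In colitis a leaky junction is one of the routes by which gut contents reach the mucosa.

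The promoters of 5 of these genes are shown because they carry a match to a motif of factors known to act on junction genes. The RefSeq windows (GRCm38.p6) matched 7 of the 9 genes with 10 start sites; Cdh17 and Marveld3 were not matched. Each sequence gives the 250 bases before a start, 5′ to 3′ on the gene's strand, and the capitals mark CAGGTG read on either strand, the E-box that the repressors Snail and Zeb bind, or AACCNGTT on either strand, which Grainyhead-like factors bind. The Epcam window is chr17:87635729-87635978 on the plus strand, that of F11r chr1:171437311-171437560 on the plus strand, that of Ocln chr13:100552499-100552748 on the minus strand and that of Cgn chr3:94786483-94786732 on the minus strand. Tjp3 has windows before 2 starts, chr10:81291268-81291517 (a) and chr10:81291582-81291831 (b), on the minus strand.
Epcam: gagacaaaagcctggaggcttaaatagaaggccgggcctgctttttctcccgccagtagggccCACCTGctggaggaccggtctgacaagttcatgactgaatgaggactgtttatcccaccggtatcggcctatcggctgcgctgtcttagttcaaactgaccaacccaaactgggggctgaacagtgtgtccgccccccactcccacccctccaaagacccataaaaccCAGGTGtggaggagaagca
F11r: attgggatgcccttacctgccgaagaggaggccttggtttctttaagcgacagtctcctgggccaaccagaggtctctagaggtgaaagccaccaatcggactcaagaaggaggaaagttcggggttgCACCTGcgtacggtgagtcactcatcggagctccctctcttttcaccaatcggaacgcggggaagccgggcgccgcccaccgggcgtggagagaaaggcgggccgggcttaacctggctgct
Ocln: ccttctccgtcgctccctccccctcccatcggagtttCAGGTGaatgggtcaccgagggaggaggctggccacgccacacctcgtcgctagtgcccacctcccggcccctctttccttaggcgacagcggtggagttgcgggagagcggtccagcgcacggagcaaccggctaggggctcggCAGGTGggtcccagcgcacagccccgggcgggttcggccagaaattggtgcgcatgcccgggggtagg
Tjp3 a: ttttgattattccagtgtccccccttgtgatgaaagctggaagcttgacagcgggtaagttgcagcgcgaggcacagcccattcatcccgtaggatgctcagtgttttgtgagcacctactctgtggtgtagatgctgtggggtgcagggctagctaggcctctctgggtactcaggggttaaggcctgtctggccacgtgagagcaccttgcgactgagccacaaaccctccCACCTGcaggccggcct
Tjp3 b: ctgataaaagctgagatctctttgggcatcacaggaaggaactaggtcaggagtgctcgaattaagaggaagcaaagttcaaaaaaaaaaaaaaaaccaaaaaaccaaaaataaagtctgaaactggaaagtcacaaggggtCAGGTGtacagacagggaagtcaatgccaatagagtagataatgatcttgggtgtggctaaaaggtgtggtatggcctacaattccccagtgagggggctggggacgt
Cgn: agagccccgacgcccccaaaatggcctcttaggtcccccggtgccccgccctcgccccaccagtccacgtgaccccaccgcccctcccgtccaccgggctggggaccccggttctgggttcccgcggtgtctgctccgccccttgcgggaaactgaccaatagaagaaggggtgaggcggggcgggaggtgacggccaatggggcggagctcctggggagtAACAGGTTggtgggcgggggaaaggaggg

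The E-box was present in 5 of the 10 windows, which belong to 4 genes (Epcam, F11r, Ocln and Tjp3), and in 17.2% of 32851 windows of this length over all genes. The 10 windows are not independent, because the 2 of Marveld2 overlap, as do the 2 of Ocln. Their share of G and C bases ran from 43.2% to 70.4%, against a median of 52.4% over all windows. Whether the E-box is more frequent in these genes was not tested. In Epcam the matches begin 187 and 19 bases before the start, and in F11r 122 bases before it. The other Ocln window held none, while Tjp3 had a match before each of its 2 starts, at 17 and 108 bases. The Grainyhead-like motif was present in the Cgn window alone, 29 bases before the start, and in 1.79% of all windows. A match of letters is a description of the window and says nothing about binding.

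The libraries held 42577920 to 67927291 counts, and a count of 1 stood for 0.0150 to 0.0229 CPM (a count divided by the scaled library size of the fit). Smad4 itself stood at 152 and 180 CPM in WT against 51.5 and 41.1 CPM in KO, so each library went with its label. In the fit its KO level was 0.279 of that in WT, so Smad4 RNA was reduced but not absent. The source of the remaining Smad4 RNA was not tested. Other cell types were sparse, and some of their markers were higher in KO. The 8 neutrophil markers summed to 103 to 130 CPM in WT against 431 to 442 CPM in KO, with 6 of 7 tested called higher, and most of this sum was Ly6g (93.3 to 116 CPM in WT, 319 to 330 CPM in KO). Without Ly6g they summed to 13.65 and 9.75 CPM in WT against 112.4 and 111.6 CPM in KO. The 10 endothelial markers summed to 7.68 to 9.35 CPM over the 4 libraries, with Cldn5 at 0 counts in each, and the 6 platelet markers to 2.11 to 3.99 CPM. The 8 smooth muscle and glia markers summed to 1.48 to 3.54 CPM. The 10 fibroblast markers summed to 44.6 and 49.0 CPM in WT against 73.5 and 83.0 CPM in KO, with 2 of 8 tested called higher. Much of that difference was Fbln1 (9.73 and 10.3 CPM in WT, 28.1 and 34.7 CPM in KO). Without Fbln1 they summed to 34.82 and 38.74 CPM in WT against 45.45 and 48.37 CPM in KO. The 10 lymphocyte and plasma cell markers summed to 10.1 and 12.7 CPM in WT against 25.7 and 29.5 CPM in KO, with 2 of 7 tested called higher. The 10 macrophage markers summed to 179 and 196 CPM in WT against 189 and 183 CPM in KO, most of it Cd14 (159 and 181 CPM in WT, 136 and 134 CPM in KO; edgeR adjusted p = 0.0550). Without Cd14 they summed to 19.96 and 15.07 CPM in WT against 52.5 and 49.0 CPM in KO, and 3 of the 10 were called higher. Of 8 epithelial markers, which summed to 16180 to 17170 CPM, 3 were called higher (Krt20, Cdx2 and Krt18) and 1 lower (Krt19), and with 1 library left out 1 to 5 were higher and 0 to 2 lower. Krt18 and Krt19 lost their calls without either KO library (largest edgeR adjusted p = 0.172 and 0.274). E-cadherin (Cdh1) was at 1832 to 1979 CPM in the 4 libraries. Nothing in the labels ties a library to a mouse, so p-values here measure the spread between libraries, which may be technical.

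Per exonic length, Epcam was by far the most abundant of the 9 transcripts, and the order of the others was similar in both genotypes. The TPM scale divides counts by exonic length, then by the library's sum of these values over all genes. It does not use the scaled library size behind CPM, so the 2 scales can give different changes. On the TPM scale Epcam was at 2432 ± 147 (SD, n = 2) in WT and 2765 ± 209 in KO. Cdh17 followed at 638 ± 15.9 and 902 ± 2.62 TPM. The plaque protein Tjp3 (374 ± 7.73 TPM in WT, 317 ± 18.4 in KO) and the adhesion molecule F11r (305 ± 23.8 and 343 ± 2.63 TPM) came next, with Tjp3 above F11r in both WT libraries and F11r above Tjp3 in both KO libraries. Cgn was at 166 ± 3.65 and 152 ± 1.36 TPM. In TPM both KO libraries of Cgn (151 and 153) were below both WT libraries (169 and 164), whereas its CPM overlapped between genotypes.

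**Figure D1:**
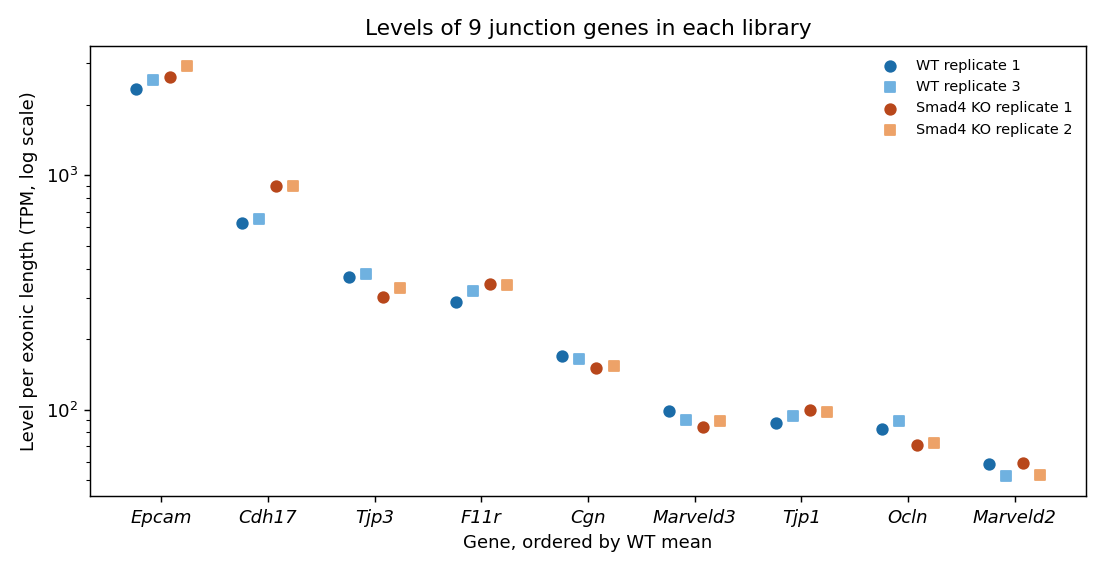
Level of each of the 9 genes per exonic length in TPM (log axis), with 1 point per library (blue WT, orange KO; circles and squares are the 2 libraries of a genotype). Epcam lies between 2328 and 2912 TPM, and Marveld2 is the lowest at 52.3 to 59.2 TPM.

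The last 4 lay close together. In WT, Tjp1 (91.1 ± 4.29 TPM) overlapped between libraries with both Marveld3 (94.5 ± 5.93 TPM) and Ocln (86.2 ± 4.88 TPM), so its place in the order was not separated from the spread. Marveld3 (98.7 and 90.3 TPM) lay above Ocln (82.7 and 89.6 TPM) without overlap, though by little. Marveld2 was lowest, at 55.5 ± 4.50 TPM. In KO, Tjp1 (98.7 ± 1.11 TPM), Marveld3 (86.9 ± 3.30 TPM), Ocln (71.5 ± 1.17 TPM) and Marveld2 (55.9 ± 4.74 TPM) did not overlap with each other. So Tjp3 exceeded Tjp1 in these cells, with a Tjp1 to Tjp3 ratio of TPM of 0.239 and 0.248 in the WT libraries and 0.328 and 0.297 in the KO libraries.

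The test of genotype called 3 of the 9 genes higher in KO, 0 lower and 6 neither (quasi-likelihood test of edgeR, threshold of 0.05 on p adjusted over 15838 tested genes). At an unadjusted p under 0.05, 4 were higher and 0 lower, and DESeq2 and limma-voom also called 0 lower. All 9 passed the filter on low counts, and each lay above 75.9% or more of tested genes in mean CPM. Over all tested genes 15.2% were called, 8.83% as higher and 6.40% as lower. The libraries of the genotypes did not overlap in 6 of the 9, against 59.4% of all tested genes. The median log2 fold change of the 9 was 0.12 against 0.01 over all tested genes, and their median size of change regardless of sign was 0.16 against 0.27. The tested genes were not matched to the 9 for level, so these medians do not show whether the 9 changed less than genes of like level. In RNA from whole cell samples, fewer cells of a type and less RNA per cell cannot be told apart. Counts of the 9 genes made up 0.404% and 0.410% of all counts in the WT libraries and 0.469% and 0.491% in the KO libraries, most of them from Epcam and Cdh17.

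Cdh17 (ENSMUSG00000028217, chromosome 4, 11758147 to 11817895; this and later gene positions are from GENCODE M21 on GRCm38) had the largest change. Its level was 887 and 874 CPM in WT replicates 1 and 3 and 1352 and 1340 CPM in KO replicates 1 and 2. Both KO libraries were far above both WT libraries, and libraries of a genotype lay close together. It rose 1.53-fold (log2 fold change 0.61, SE 0.0424, 95% interval 1.42 to 1.65-fold, edgeR adjusted p = 0.00113), a larger change than in 73.4% of tested genes, and kept its call without any 1 library (edgeR adjusted p = 0.00223 to 0.0192). E-cadherin, its classical relative in the same cells, was not called (log2 fold change 0.067, edgeR adjusted p = 0.406). The ratio of Cdh17 to Cdh1 in TPM was 0.495 and 0.460 in the WT libraries and 0.699 and 0.692 in the KO libraries. With 2 libraries a group, an exact two-sided permutation test of such a ratio cannot go below 0.333.

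Of 9402 other genes with a mean of at least 10 CPM, those whose 4 log2(CPM + 1) values lay closest to those of Cdh17, after centring, were Acot9, Ccng2 and Slc6a6 (distances 0.0171, 0.0203 and 0.0296). Over 4 libraries many profiles are alike, and 303 genes lay within 0.2.

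Epcam (ENSMUSG00000045394, chromosome 17, 87635979 to 87651129) was at 1616 and 1674 CPM in WT against 1922 and 2127 CPM in KO replicates 1 and 2. The groups did not overlap, but the KO libraries differed from each other more than the WT libraries did. Epcam rose 1.23-fold (log2 fold change 0.30, SE 0.0613, 95% interval 1.11 to 1.37-fold, edgeR adjusted p = 0.0320). The call was lost without WT replicate 1, KO replicate 1 or KO replicate 2 (edgeR adjusted p = 0.0752, 0.0652 and 0.175), and with library totals in place of TMM scaling (edgeR adjusted p = 0.0605) or edgeR's likelihood ratio test (0.0890).

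F11r (ENSMUSG00000038235, chromosome 1, 171437535 to 171464603) was at 242 and 257 CPM in WT against 307 and 302 CPM in KO. Both KO libraries were above both WT libraries. It rose 1.22-fold (log2 fold change 0.29, SE 0.0600, 95% interval 1.10 to 1.35-fold, edgeR adjusted p = 0.0346). This call too was lost without WT replicate 1, KO replicate 1 or KO replicate 2 (edgeR adjusted p = 0.0539, 0.203 and 0.194) and with library totals (0.0681) or the likelihood ratio test (0.116). F11r is also made by endothelium, platelets and leukocytes. The endothelial and platelet markers given above summed to at most 9.35 and 3.99 CPM in any library. The neutrophil markers and the leukocyte gene Ptprc (6.77 and 7.13 CPM in WT, 16.4 and 19.4 CPM in KO) were higher in KO. The part of any of these cells in the F11r difference was not tested.

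**Figure D2:**
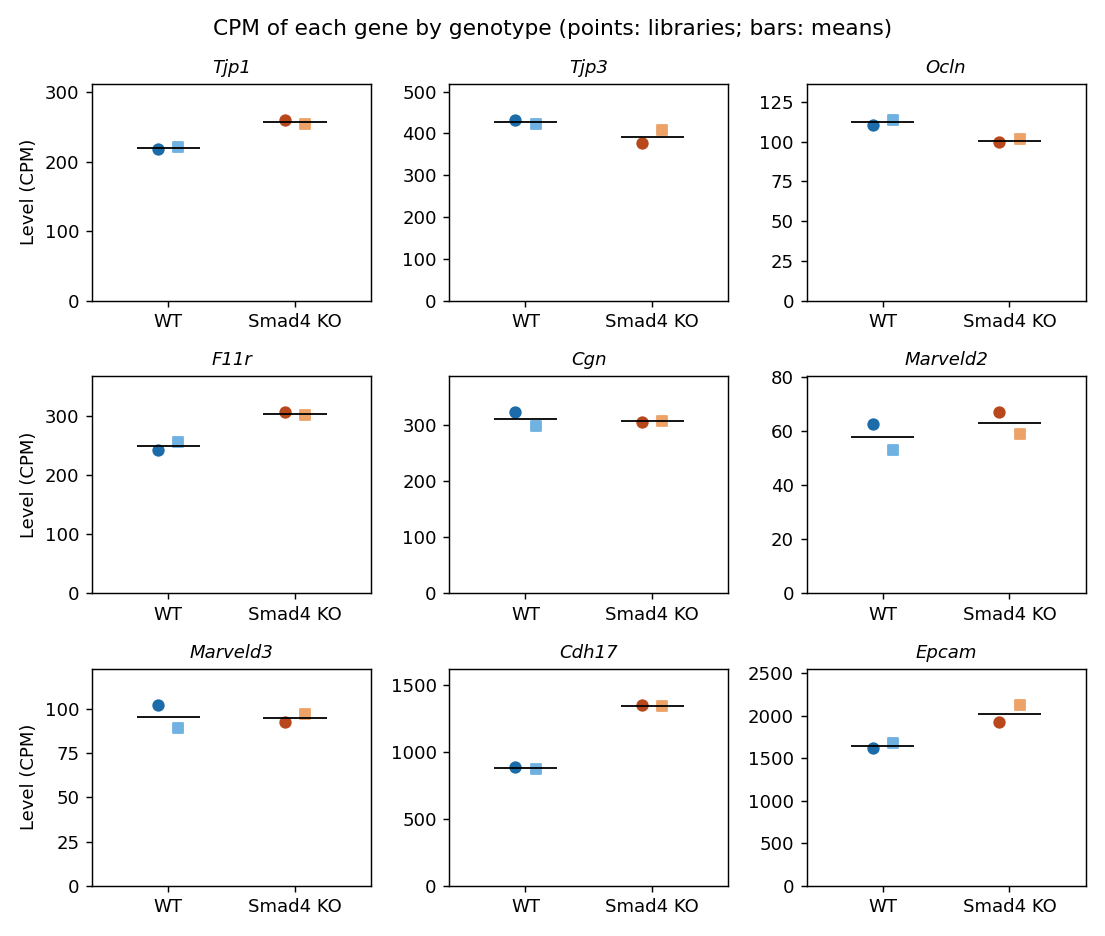
CPM of each of the 9 genes by genotype on axes from 0, with 1 point per library and a bar at the mean of each genotype. Cdh17 shows the widest gap, from a mean of 881 CPM in WT to 1346 CPM in KO, while the points of Cgn, Marveld2 and Marveld3 overlap between genotypes.

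Tjp1 (ENSMUSG00000030516, chromosome 7, 65296165 to 65527781) was at 218 and 221 CPM in WT against 260 and 255 CPM in KO. The genotypes did not overlap and the libraries of each lay close together, but the gene did not pass (log2 fold change 0.23, SE 0.0559, 95% interval 1.06 to 1.29-fold, edgeR adjusted p = 0.0525). The interval is for the single gene, before adjustment. Tjp1 passed under 4 of 14 alternatives, with the smallest adjusted p by DESeq2 (0.0203). It did not pass under the other 10, which include the likelihood ratio test (edgeR adjusted p = 0.239), library totals (0.105) and all 4 fits without a library (0.0644 to 0.280).

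Tjp3 (ENSMUSG00000034917, chromosome 10, 81273207 to 81291581) differed in sign from Tjp1. Its level was 433 and 424 CPM in WT against 377 and 407 CPM in KO, so that the KO libraries were lower without overlap, and the gene did not pass (log2 fold change -0.13, 95% interval 0.823 to 1.02-fold, edgeR adjusted p = 0.240). Its exons share 40 bases with Apba3 on the other strand, which had 5032 counts in all against 92863 for Tjp3. Cingulin (Cgn, ENSMUSG00000068876, chromosome 3, 94760069 to 94786492), the plaque protein that binds zonula occludens proteins and myosin, was at 322 and 297 CPM in WT against 305 and 307 CPM in KO. Its KO values in CPM lay between the WT values, unlike those in TPM, and it did not pass (log2 fold change -0.016, 95% interval 0.885 to 1.11-fold, edgeR adjusted p = 0.901).

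Among the MARVEL proteins none passed. Ocln (ENSMUSG00000021638, chromosome 13, 100496507 to 100552718) was at 110 and 114 CPM in WT against 99.8 and 102 CPM in KO. The KO libraries were lower without overlap (log2 fold change -0.16, SE 0.0643, 95% interval 0.802 to 1.01-fold, edgeR adjusted p = 0.184). Marveld2 (ENSMUSG00000021636) lies 43.2 kb from Ocln on the same strand of chromosome 13, at 100595957 to 100616971. It was at 62.7 and 53.2 CPM in WT against 67.0 and 59.1 CPM in KO, with overlap between the genotypes (log2 fold change 0.12, 95% interval 0.888 to 1.33-fold, edgeR adjusted p = 0.555). Marveld3 (ENSMUSG00000001672, chromosome 8, 109947914 to 109962203) was at 103 and 89.2 CPM in WT against 92.9 and 97.5 CPM in KO and overlapped as well (log2 fold change -0.010, 95% interval 0.847 to 1.16-fold, edgeR adjusted p = 0.959). The intervals of Marveld2 and Marveld3 reach from lower to higher levels in KO, so a change within them was not detectable with these libraries.

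Ratios within a library set these genes against each other. The ratio of Ocln to Tjp1 in TPM was 0.939 and 0.952 in the WT libraries and 0.710 and 0.738 in the KO libraries. That of Marveld2 to Ocln was 0.709 and 0.583 in WT against 0.838 and 0.726 in KO. The first ratio did not overlap between genotypes, nor did the second, though its KO value of 0.726 was close to the WT value of 0.709.

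**Figure D3:**
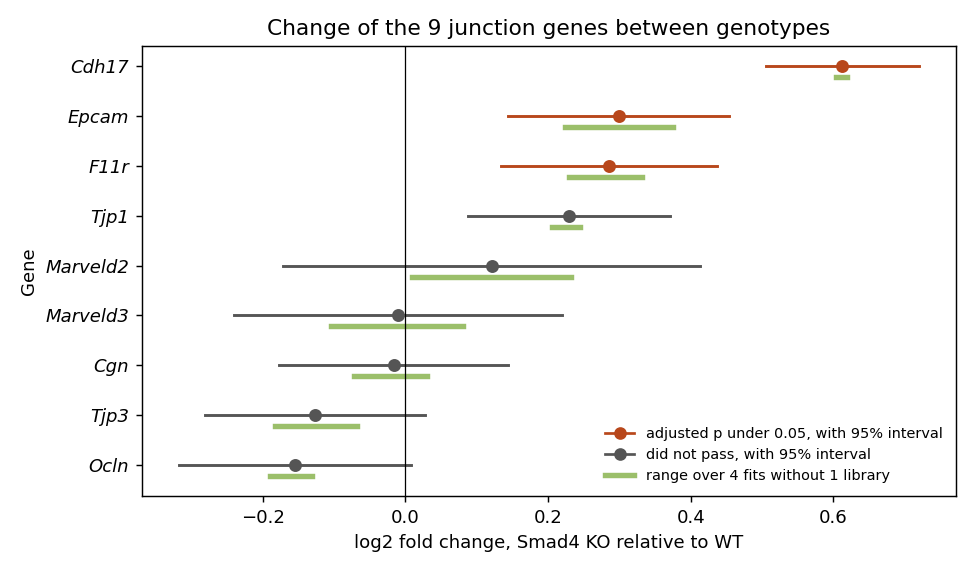
Log2 fold change of each gene, KO relative to WT, with its 95% interval (orange, called; grey, not called) and, as a green bar, the range over the 4 fits that each left out 1 library. Cdh17 stands at 0.61, Epcam and F11r near 0.3, and Ocln is the lowest at -0.16.

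Other junction genes moved in both directions, and most did not pass. Of 22 tested entries for 21 tight junction plaque and membrane partners, 2 rose, 3 fell and 17 did not pass, with a median log2 fold change of -0.0070. The angulins, which bring tricellulin to cell corners, were divided. Lsr fell from 159 ± 4.25 to 88.8 ± 1.48 CPM (log2 fold change -0.84, edgeR adjusted p = 0.00155), the KO values being 87.8 and 89.9 CPM against 156 and 162 CPM in WT, and kept its call without any 1 library. Ildr1 went from 284 ± 6.28 up to 399 ± 7.94 CPM (1.40-fold, edgeR adjusted p = 0.00497), and this rise did not pass without KO replicate 2 (edgeR adjusted p = 0.0604). The scaffold Magi3 fell 1.36-fold (edgeR adjusted p = 0.0137). The other calls, chosen for naming after their values were seen, were Cgnl1 (paracingulin, the relative of cingulin), which fell 1.35-fold (edgeR adjusted p = 0.0177), and Amotl1, which rose 1.63-fold (edgeR adjusted p = 0.0436). Magi3 and Cgnl1 were not called when either KO library was left out (largest edgeR adjusted p = 0.149), nor was Amotl1 when any of the 4 was (largest edgeR adjusted p = 0.231).

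Of 14 polarity genes 1 rose and 13 did not pass, with a median log2 fold change of -0.02. The one called was Pard6b, a subunit of the Par complex that positions tight junctions, which rose from 51.3 ± 0.226 to 101 ± 6.29 CPM (1.97-fold, edgeR adjusted p = 0.00171). Next by p were Prkci and Scrib, both lower in KO (log2 fold changes -0.19 and -0.21), which did not pass (edgeR adjusted p = 0.1045 and 0.1084). Of 13 tested claudins, 4 rose, 1 fell and 8 did not pass. The latter include Cldn2, which had 1 count in 1 library of each genotype and 9789 (WT) or 13976 (KO) in the other. Cldn8, a sealing claudin of the distal colon, fell from 157 ± 1.23 to 93.2 ± 4.10 CPM (log2 fold change -0.75, edgeR adjusted p = 0.00246) and kept its call without any 1 library. Cldn23 and Cldn15 rose by log2 fold changes of 0.48 and 0.38 (edgeR adjusted p = 0.0267 and 0.0315). So did Cldn4 and Cldn7, named after their values were seen (1.29-fold and 1.19-fold, edgeR adjusted p = 0.0317 and 0.0421). Each of these 4 lost its call in at least 3 of the 4 fits without 1 library.

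Epcam works with claudins, tetraspanins and membrane proteases. Of 7 tested Epcam partners and proteases, 3 rose, 1 fell and 3 did not pass, with a median log2 fold change of 0.20. Those called higher were Cldn7, also counted among the claudins, at 664 and 717 CPM in WT against 815 and 831 CPM in KO, the tetraspanin Tspan8 (1.25-fold, edgeR adjusted p = 0.0194) and St14 (matriptase, the protease that cleaves Epcam; 1.19-fold, edgeR adjusted p = 0.0228). The tetraspanin Cd9 fell 1.27-fold (edgeR adjusted p = 0.0472) and was named after its values were seen. Spint2, the inhibitor of matriptase, was at 1254 and 1194 CPM in WT against 1379 and 1434 CPM in KO, and was not called (edgeR adjusted p = 0.0532). Tspan8 and St14 lost their calls without either KO library, and Cldn7 and Cd9 were called in 1 of the 4 fits without a library.

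Of 13 adherens junction genes, 2 rose, 1 fell and 10 did not pass. Nectin3, an adhesion molecule of the adherens belt, fell from 102 ± 3.79 to 41.5 ± 2.01 CPM (log2 fold change -1.29, edgeR adjusted p = 0.000748), a larger change than that of any of the 9 genes. The armadillo protein Pkp4 and β-catenin (Ctnnb1) rose 1.61-fold and 1.41-fold (edgeR adjusted p = 0.00838 and 0.0125) and lost their calls without either KO library. Of 9 tested actomyosin genes, the kinase Rock2 rose 1.47-fold (edgeR adjusted p = 0.00454) and 8 did not pass. Among those 8 were Myh9, lower in KO (log2 fold change -0.13, edgeR adjusted p = 0.113), and the myosin light chain kinase Mylk (79.4 and 84.9 CPM in WT against 89.0 and 87.1 CPM in KO).

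**Figure D4:**
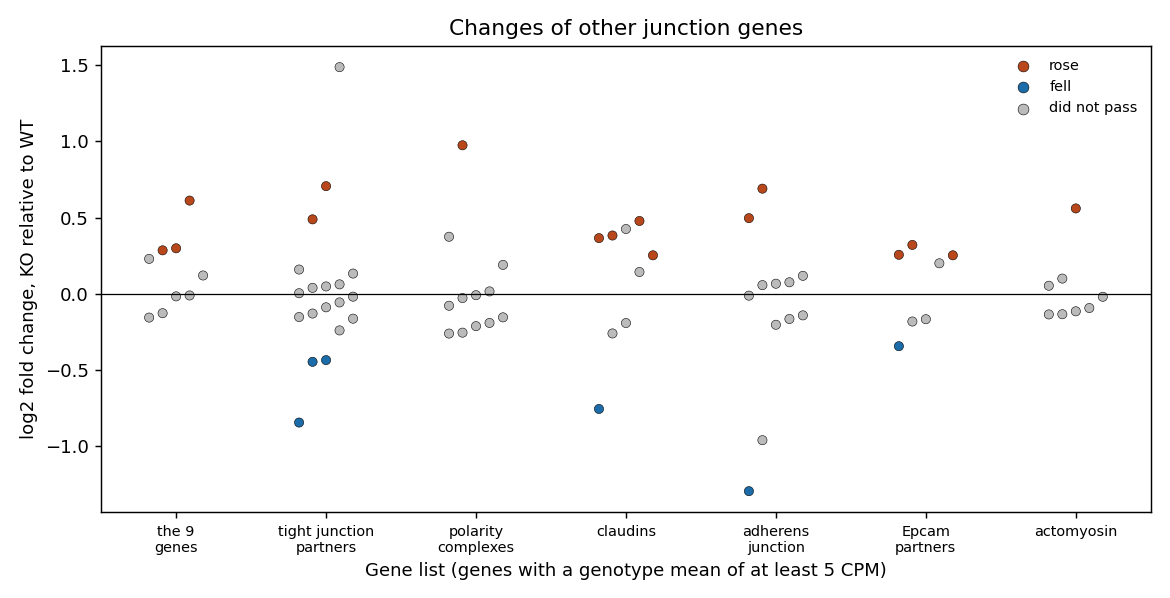
Log2 fold change, KO relative to WT, of the 9 genes and of 6 lists of other junction genes, for genes with a genotype mean of at least 5 CPM (orange, rose; blue, fell; grey, did not pass). Nectin3 (-1.29) and Lsr (-0.84) are the lowest called points and Pard6b (0.97) the highest.

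Of 17 tested transcription factors known to act on junction or gut genes, 2 rose, 3 fell and 12 did not pass. Cdx2, the gut homeodomain factor known to activate Cdh17, was at 170 and 176 CPM in WT against 249 and 269 CPM in KO and rose 1.50-fold (edgeR adjusted p = 0.00558, 0.0530 without KO replicate 2). Zeb2, a repressor that binds the E-box, rose from 0.438 ± 0.00353 to 2.85 ± 0.125 CPM (edgeR adjusted p = 0.00668), a call that needed both KO libraries. Macrophages make Zeb2 too, and the 10 macrophage markers were mixed, with 3 called higher and 7 not called. Csf1r (3.19 and 3.26 CPM in WT against 9.13 and 7.15 CPM in KO) and Lyz2 (5.57 and 3.76 CPM, 18.8 and 18.9 CPM) were among the 3. Mrc1 (5.03 and 3.62 CPM in WT against 2.69 and 2.68 CPM in KO) and Cd14 were lower in KO and not called. The part of macrophages in the Zeb2 difference was not tested. Klf4 fell 1.45-fold (edgeR adjusted p = 0.0100), as did Klf5 (1.37-fold, edgeR adjusted p = 0.0191) and Hnf4a (1.17-fold, edgeR adjusted p = 0.0444), the last 2 named after their values were seen. All 3 lost their calls without either KO library, and Hnf4a also without WT replicate 1. Grhl2, the Grainyhead-like factor with the highest level, was at 67.1 and 61.1 CPM in WT and at 63.3 and 22.7 CPM in KO, where the KO libraries differed from each other, and did not pass (edgeR adjusted p = 0.465).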

How the data were processed

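Per the labels' protocols, total RNA was reverse transcribed with random hexamers. The authors deposited raw whole-number counts per Ensembl gene for 4 libraries. The submitters' processing notes name FastQC 0.19.7, HISAT2 2.1.0, SAMtools 1.9, StringTie 1.3.3b and GRCm38 (mm10), without roles. Counting tool, annotation release, strand setting and handling of shared reads: not given in the sources used here.

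Columns were matched to libraries by title. GENCODE M21 (GRCm38) gave symbols, positions and union exon lengths, and named 31207 of 31227 rows. After filterByExpr, 15838 genes were scaled by TMM and fitted in edgeR 4.0.16 (R 4.3.3), using its quasi-likelihood F test over all genes, with genotype as the only term and a Benjamini-Hochberg threshold of 0.05. CPM uses TMM-scaled library sizes. TPM is counts per exonic length, scaled to the library's sum of such values over all genes, without TMM. The SE is the log2 fold change over the root of F. The fit was tested on simulated data. Members of the list and the other lists were chosen with earlier results of these data known. One gene of the other lists is not reported here and was left out of its list's counts. Of each other list of junction, polarity, actomyosin or transcription factor genes, the 3 genes with the smallest p are named, with some further genes. Genes of the cell type lists are named without that rule. Alternatives included DESeq2 1.42.0 and limma 3.58.1 (voom). Protein sequences were not used here. The 2 libraries within each genotype were not copies of each other (mean chi-square per gene 38.6 for WT and 32.4 for KO, where sampling noise gives about 1).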

Additional observations from a re-analysis of the deposited data

How the results depend on the processing

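The 9 genes were refitted under 14 alternatives, 10 of other scaling, filters or tests and 4 that left out a library. Of the 126 values, 109 kept their direction and side of the threshold, 10 lost a call (F11r and Epcam, 5 each), 4 gained one (Tjp1) and 3 changed sign. Those 3 belong to genes close to no change: Cgn ran from -0.071 to 0.031 over the fits without a library (0.031 without WT replicate 1), and Marveld3 from -0.10 to 0.081 (0.081 without WT replicate 1 and 0.029 without KO replicate 1). Cdh17 kept its call under all 14, with log2 fold changes of 0.56 to 0.62. The count of genes called, all of them higher, was 1 with library totals in place of TMM and 1 with edgeR's likelihood ratio test, and 1 to 3 when a library was left out. The cause of the losses with library totals and the likelihood ratio test was not tested. It was 3 or 4 under the other 8, and none of the 9 was called lower under any alternative. At an unadjusted p under 0.05 no gene of the 9 was lower in the edgeR fit. Over all tested genes, 2412 were called, against 975 to 2573 without a library, with the low counts of 978 and 975 in the fits without KO replicate 1 and KO replicate 2. No paired analysis was possible because the genotypes share only replicate number 1. The smallest change that 2 libraries per genotype can separate was not tested. Tjp1 (log2 fold change 0.23, edgeR adjusted p = 0.0525) lay close to the threshold, while Ocln (-0.16, edgeR adjusted p = 0.184) lay further from it.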

Other observations

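Cldn2, the pore-forming claudin, was present in 1 library of each genotype and nearly absent from the other. It had 9789 counts in WT replicate 1 and 13976 in KO replicate 1, against 1 count in WT replicate 3 and 1 in KO replicate 2. Of 9403 genes with a mean of at least 10 CPM, 3 differed at least 10-fold (after adding 0.5 CPM) between the libraries of both genotypes: Cldn2, B3gnt2 and Gm28048. In B3gnt2 the high libraries were WT replicate 3 and KO replicate 1 (3441 and 4258 counts, against 243 and 257). A further 11 genes did so in 1 genotype only. None of the 9 junction genes did, and their largest fold between libraries of a genotype was 1.18. The assignment of reads to these genes was not tested.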
